A study of Bos taurus with 12 samples.

Results

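Of the 10773 genes that held at least 1 differentially methylated site in a deposited comparison of subfertile and fertile cows, 89 carried a ZNF symbol, the naming series for zinc finger proteins, and these 89 genes are described here. A site was assigned to the gene named in its annotation, or, where none was named, to the gene with the nearest transcription start. Gene features were introns, exons, untranslated regions, promoters and downstream sequence, and sites in distal intergenic sequence were left out. ZNF genes on chromosome 18 from position 57000000 upward were also left out. The 89 genes held 595 sites of the 92535 that lay in gene features and of 216990 in all. The series measured DNA methylation in whole blood of 12 cows from one farm, aged 3 to 8 years, with 1 mL of blood per sample. The 6 subfertile cows were culled within a year of sampling for reproductive problems, none of which had been noticed at the time, and the 6 fertile cows stayed in the herd. No treatment, strain or genetic modification separated the groups. Cows are numbered within each group only to name them, and a number shared by a subfertile and a fertile cow does not pair them. In the table, columns whose names begin with F belong to cows labelled subfertile and columns that begin with R to cows labelled fertile. What the letters stand for is not given, the sample labels were followed, and every direction below rests on them.

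Zinc finger proteins of this series bind DNA through repeated finger-shaped loops held by a zinc ion, and the make-up of its fingers sets which sequence a protein recognises. The largest subfamily carries a KRAB domain, which recruits the corepressor TRIM28 and, through it, enzymes that place repressive histone marks and DNA methylation. KRAB zinc finger proteins are known above all for silencing transposable elements, and their genes stand in clusters because they multiplied by local duplication. Other members have no KRAB domain and act as single developmental regulators, as splicing or mitotic factors, or as partners of histone deacetylases.

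Methylation was read by enzymatic methyl sequencing, in which enzymes in place of bisulfite convert unmodified cytosines, so that methylated and hydroxymethylated cytosines are read alike. The values are percentages of reads, and the number of reads behind each value is unknown, so no counting error can be given. The authors had kept only sites that differed by more than 25 percentage points between these same cows. A difference at a listed site is therefore no finding in itself, p-values describe only the spread among these 12 cows, and the ZNF genes are read against all genes of the same table. Whole blood mixes cell types, so a change in the share of a cell type and a change in methylation per cell cannot be told apart. The share of missing values over the ZNF sites ran between 0.336% and 5.71% per cow.

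The ZNF genes did not move in one direction. The subfertile mean was above the fertile mean in 42 of the 89 genes and below it in 47, and over all genes it was above in 52%. The median difference of the 89 genes, subfertile minus fertile, was -8.20 percentage points, against 2.09 points over all genes. It lay between -53.0 points for ZNF576 and 41.5 points for ZNF106, which had 1 site. Without 11 neighbouring genes of chromosome 18, described below, the median was 0.39 points. A difference of at least 25 points was found in 48 genes (53.9%, against 57.1% of all genes), and 14 genes (15.7%, against 16.2%) differed by less than 10 points.

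With a model fitted to the mean of each gene in each cow, none of the 80 ZNF genes that had a value in all 12 cows passed an adjusted p of 0.05 (limma, Benjamini-Hochberg over 9891 genes), where 0.121% of all genes passed. At an unadjusted p under 0.05 there were 32 ZNF genes, or 40%, close to the 40.6% of all genes. Of these, 14 were higher and 18 lower in subfertile cows, where 21.6% of all genes were higher and 18.9% lower at that p. The other 9 ZNF genes lacked a value in at least 1 cow and were not tested. Every cow of one group lay beyond every cow of the other in 4 genes (4.49%, against 3.5% of all genes), with ZNF395, ZNF575 and ZNF513 higher and ZNF503 lower in subfertile cows. Over all genes 2.18% were higher without overlap and 1.32% lower. ZNF513 rested on 1 site with values in 5 subfertile and 5 fertile cows.

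**Figure D1:**
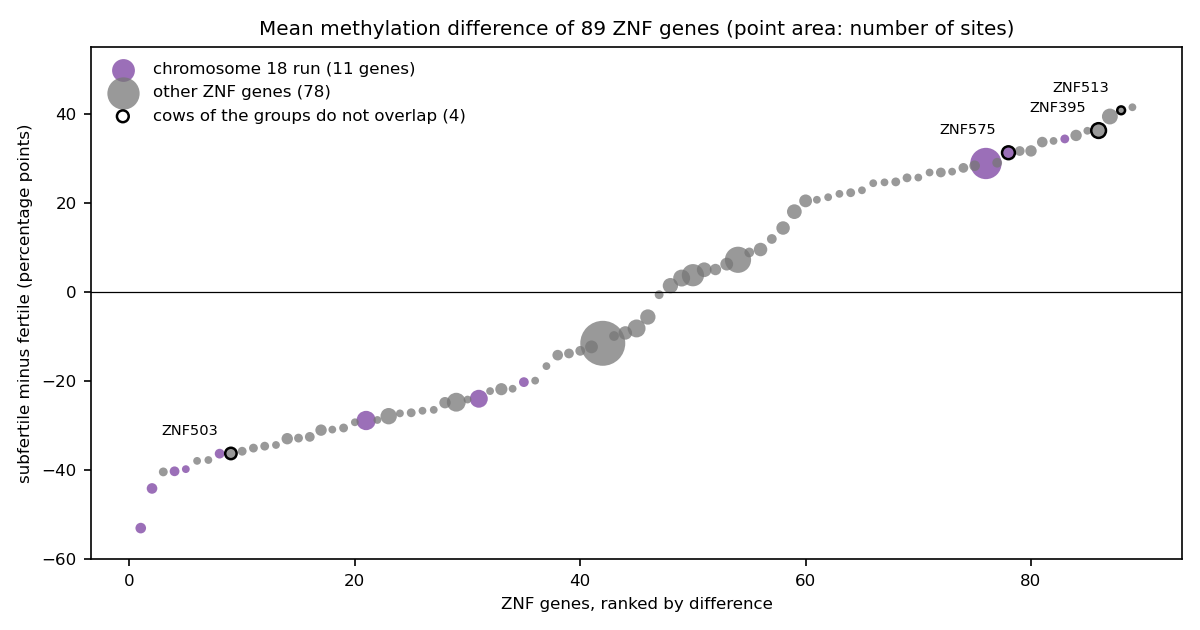
Each point is 1 of the 89 ZNF genes, ranked along the x axis by its difference in mean methylation (y axis, subfertile minus fertile, percentage points), with an area that grows with the number of sites. Purple points are the 11 genes of the chromosome 18 run, and black rings mark the 4 genes whose cows do not overlap between groups. Genes lie on both sides of 0 between -53.0 and 41.5 points, and the genes with the most sites lie nearer to 0 than the extremes.

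Among the 49 genes with 3 or more sites, 19 had all sites in one direction, 11 of them higher and 8 lower in subfertile cows, and their median absolute difference was 33.0 points (32.1 points over all such genes). The other 30 held sites of both directions, with a median absolute difference of 12.1 points (13.2 points over all such genes). Since each site was kept for a large difference, the means of mixed genes lie nearer to 0 by construction. The share with a single direction was 38.8%, against 35.3% of all genes with as many sites. A further 28 ZNF genes rested on 1 site.

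ZNF503, which encodes a transcriptional repressor active in the development of limb, brain and mammary tissue, had low methylation in every subfertile cow. Its 5 sites lay at chr28:31133621-31133671 (ARS-UCD1.2), 51 bases on the minus strand, annotated as promoter. They lay 2115 to 2165 bases downstream of the transcription start, inside the transcript. Over the 5 sites the 6 subfertile cows had 15.0% at the lowest, 16.5% at the median and 27.7% at the highest, against 38.5%, 58.5% and 63.9% in the 6 fertile cows. The groups did not overlap, and fertile cow 1 was the fertile cow nearest to the subfertile ones.

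The mean of ZNF503 was 19.1 ± 5.21% in subfertile cows and 55.4 ± 9.09% in fertile cows (SD, n = 6 each), a difference of -36.3 points. Each of the 5 sites differed in the same direction, by -38.6 to -32.1 points. None of the 5 had both a cow under 10% and a cow over 80%, and single values ran between 6.67% and 36.4% in subfertile cows and between 31.3% and 72.7% in fertile cows. In a fit restricted to genes with 3 or more promoter sites, ZNF503 passed with an adjusted p of 0.0285. An exact two-sided permutation test over the 924 splits of the 12 cows gave p = 0.00216, the smallest that 6 against 6 allows. Groups that do not overlap must give this p, so at sites kept for their difference it restates the separation. In the fit over all gene sites, the adjusted p of ZNF503 was 0.0549, the lowest among ZNF genes. The promoter call was lost without fertile cow 4 (adjusted p = 0.0540). It was also lost when the median of the sites replaced their mean (adjusted p = 0.0672). The same held when genes with 1 promoter site were also tested (adjusted p = 0.0795). In those fits, in that order, 0.31%, 0.0774% and 0.0909% of all genes tested passed, against 15.9% in the main promoter fit.

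**Figure D2:**
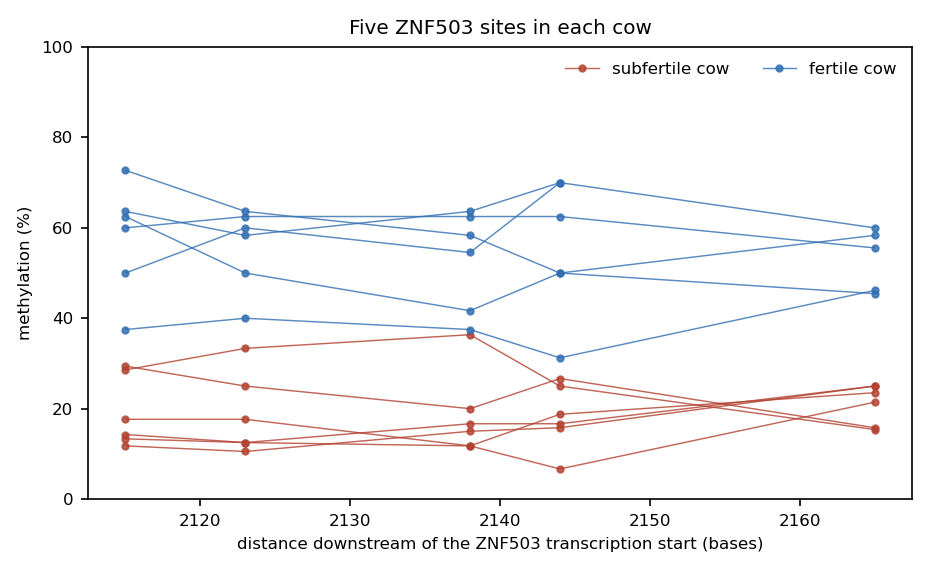
Methylation (y axis, percent) of the 5 ZNF503 sites at their distance downstream of the transcription start (x axis, bases), with 1 line for each of the 6 subfertile and 6 fertile cows. At each site the subfertile cows lie lowest, and single values run from 6.67% to 36.4% in subfertile cows and from 31.3% to 72.7% in fertile cows.

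Promoter sites were found in 43 of the 89 genes, and 13 of these had 3 or more and were tested. ZNF503 and ZNF575 passed, 2 of 13, where 15.9% of the 1292 genes tested passed. At an unadjusted p under 0.05 there were 6 of the 13, against 51.9% of all genes tested. No single ZNF site passed an adjusted p of 0.01 in a fit of all 216990 sites, where 0% passed. At an unadjusted p under 0.05 there were 339 of the 595 ZNF sites (56.97%, against 52.7% of all sites). At 16 ZNF sites (2.69%, against 3.1% of all sites) the cows of the groups did not overlap, and 5 of those sites were in ZNF503 and 4 in ZNF235.

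Chromosome 18 carried 17 of the ZNF genes, and 11 of them stood in a run between their first and last sites at chr18:51733714-52301463, a span of 568 kb. The limits of this run were chosen after the values were seen. In chromosome order the genes were ZNF575, ZNF576, ZNF428, ZNF283, ZNF404, ZNF45, ZNF226, ZNF227, ZNF235, ZNF112 and ZNF180. The last 8 are KRAB zinc finger genes in humans. ZNF575, ZNF235 and ZNF180 were higher in subfertile cows, and the other 8 genes were lower. Together they held 116 sites, 61 higher and 55 lower.

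The cows held a similar order across the lower sites of the run. Over the 55 lower ZNF sites, subfertile cow 6 averaged 0%, cow 2 averaged 0.303%, cow 5 averaged 9.51% and cow 3 averaged 10.05%. The remaining subfertile cows, 1 and 4, averaged 42.8% and 79.8%, and the fertile cows averaged from 39.8% to 87.5%. Subfertile cows 1 and 4 thus lay among the fertile cows, and the groups overlapped. The 171 lower sites of the run outside ZNF genes had the same 4 subfertile cows at the bottom, between 2.02% and 15.4%, against 33.3% to 84.6% in the fertile cows. Of the 61 higher ZNF sites, 45 lay in ZNF235. Over these 61 sites the subfertile cows lay between 91.0% and 94.2%, against 16.2% to 86.5% in the fertile cows. The groups did not overlap there, nor over the higher sites of the run outside ZNF genes. Those other sites averaged 69.2% to 92.9% in the subfertile cows and 32.1% to 65.2% in the fertile cows. Which of the 2 directions a site took decided its place in this description, so the separation carries no test.

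Many sites of the run took values near all or none in single cows. A site with at least 1 cow under 10% and at least 1 cow over 80% is called wide-range here. Of the 116 ZNF sites of the run, 97 were wide-range (83.6%, against 69.7% of all sites in gene features). ZNF235 held 54 of them, and the other 10 genes had 43 wide-range sites of 62 (69.4%). Wide-range sites made up 70.3% of all 595 ZNF sites. Without them, 19 sites in 6 genes of the run were left, 16 higher and 3 lower. Genotypes were not analysed here, and the part of DNA sequence differences between cows was not tested.

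ZNF575, a short zinc finger gene without a KRAB domain, was the gene of the run in which the groups did not overlap. Its 7 sites, all promoter sites and none wide-range, lay at chr18:51733714-51739752. They gave 92.1% at the lowest, 95.8% at the median and 97.4% at the highest in subfertile cows, against 36.8%, 65.8% and 90.4% in fertile cows. Fertile cows 1, 4 and 5 stood just under the subfertile cows, between 87.8% and 90.4%, and fertile cows 2, 3 and 6 between 36.8% and 43.7%. The means were 95.4 ± 2.10% in subfertile cows and 64.1 ± 27.1% in fertile cows (SD, n = 6 each). The promoter fit gave an adjusted p of 0.0466, and the fit over all gene sites gave 0.0688. The promoter call was lost on leaving out any of 9 cows, with adjusted p-values of 0.0540 to 0.0644. These were subfertile cow 1, 2, 3, 4 or 6 or fertile cow 2, 3, 4 or 6. In the fits without them 0.31% to 11.3% of all genes tested passed, against 15.9% in the main promoter fit.

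ZNF235, a KRAB gene with 54 sites at chr18:52212468-52226715, held the most sites in the run, and all 54 were wide-range. Its gene mean was 76.1% at the lowest, 78.6% at the median and 94.1% at the highest in subfertile cows, against 14.9%, 56.3% and 85.3% in fertile cows. Fertile cow 3, at 85.3%, lay among the subfertile cows, and fertile cow 1, at 14.9%, lay far below the rest. The means were 81.9 ± 6.83% in subfertile cows and 53.1 ± 22.8% in fertile cows (SD, n = 6 each, adjusted p = 0.0845). Of its sites 45 were higher and 9 lower. The 5 sites in its last exon, the exon that holds the finger array in most genes of this family, averaged 40.5 ± 34.3% in subfertile cows and 72.6 ± 17.2% in fertile cows.

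The genes between ZNF575 and ZNF235 had lower means in subfertile cows, and in ZNF576, ZNF428, ZNF45, ZNF226 and ZNF227 some subfertile cows were at 0%. ZNF576 had 4 promoter sites that averaged 13.7 ± 21.2% in subfertile cows and 66.7 ± 37.9% in fertile cows (SD, n = 6 each, adjusted p = 0.0791). Subfertile cows 2, 3, 5 and 6 were at 0%, and so was fertile cow 3, so the groups overlapped. ZNF45 averaged 25.6 ± 40.7% in subfertile cows and 69.7 ± 27.4% in fertile cows (adjusted p = 0.0929), with subfertile cow 4 at 94.4% among the fertile cows. ZNF227 averaged 24.6 ± 24.5% and ZNF226 averaged 37.2 ± 34.7% in subfertile cows, against 64.9 ± 20.5% and 73.5 ± 26.6% in fertile cows. In both, subfertile cows 2 and 6 were at 0%.

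ZNF404 and ZNF112, further KRAB genes of the run, mixed both directions. ZNF404 had 17 lower and 2 higher sites and averaged 33.7 ± 32.7% in subfertile cows and 62.6 ± 19.1% in fertile cows (SD, n = 6 each). ZNF112 had 12 lower and 4 higher sites and averaged 32.2 ± 18.8% in subfertile cows and 56.2 ± 10.6% in fertile cows. Both turned to higher means without their wide-range sites, by 33.9 points for ZNF404 and 15.9 points for ZNF112. Those values rest on the 2 and 6 sites that were left. In ZNF404 all 17 lower sites were wide-range, so only higher sites could be left. ZNF180, with 2 adjacent sites, averaged 95.4 ± 6.26% in subfertile cows and 61.1 ± 24.9% in fertile cows (adjusted p = 0.0688).

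**Figure D3:**
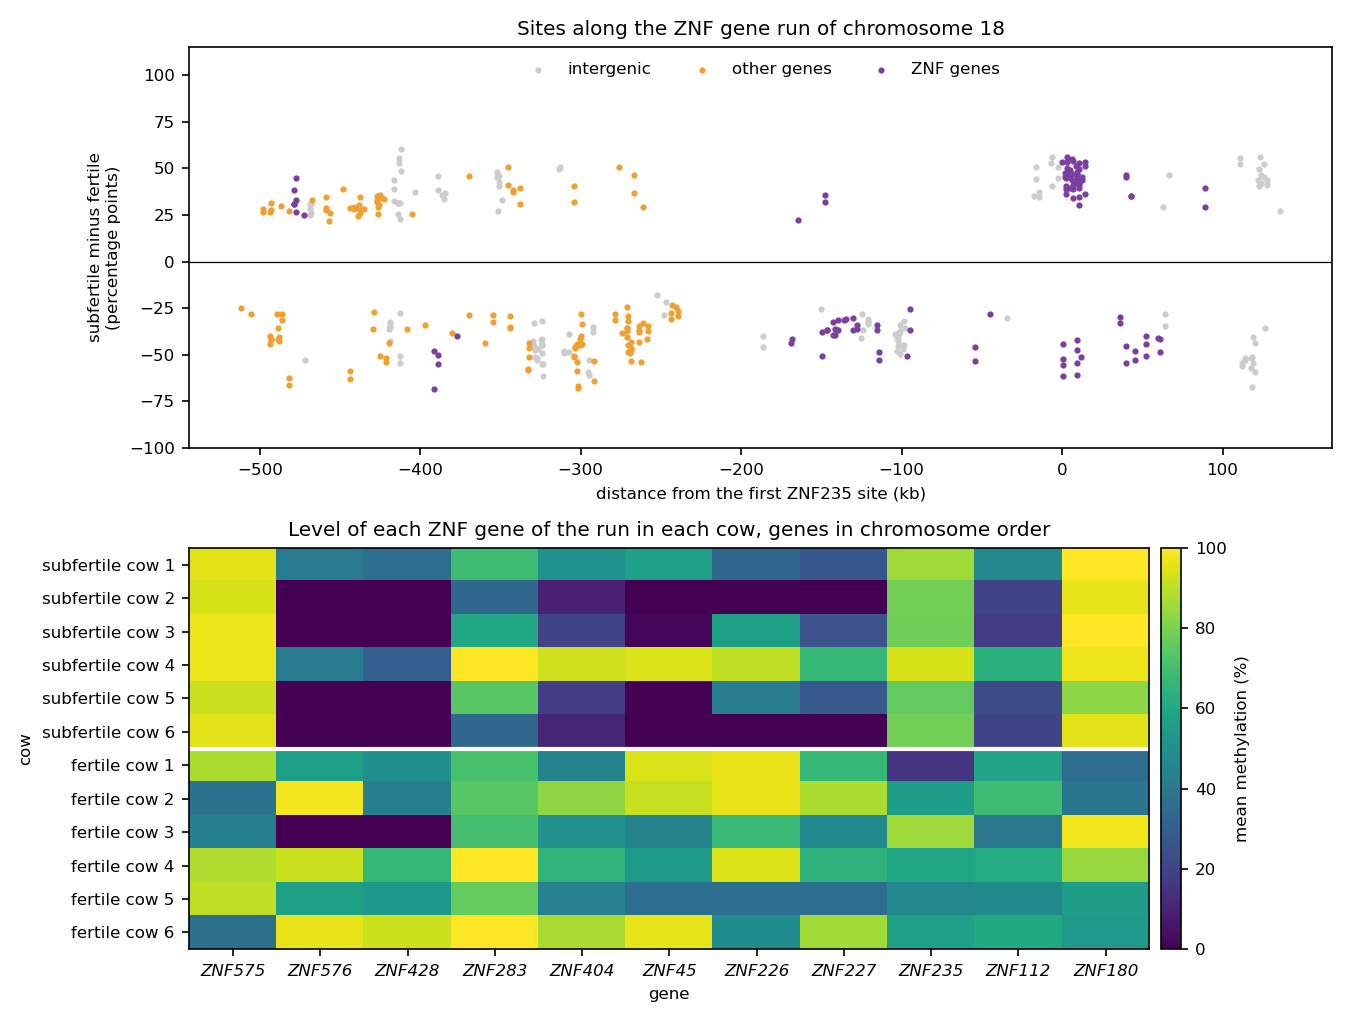
The upper panel shows the difference of each site (y axis, subfertile minus fertile, percentage points) by its distance from the first ZNF235 site (x axis, kb), for ZNF genes, other genes and intergenic sites. The lower panel shows the mean methylation (colour, percent) of the 11 ZNF genes in each of the 6 subfertile and 6 fertile cows. Subfertile cows 2, 3, 5 and 6 are dark from ZNF576 to ZNF428, fertile cow 3 shares that pattern, and all subfertile cows are bright in ZNF575 and ZNF180.

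Outside the run, ZNF395 had the lowest adjusted p of the higher genes. ZNF395 is a transcription factor known for binding the promoter of the huntingtin gene and for its induction by hypoxia. Its 10 sites at chr8:10348841-10371042 were all higher and none was wide-range, with 6 in the first intron, 2 in intron 4 and 2 in the promoter. They gave 88.7% at the lowest, 93.7% at the median and 95.6% at the highest in subfertile cows, against 38.3%, 47.1% and 87.5% in fertile cows. The groups did not overlap, although fertile cow 6 at 87.5% and fertile cow 5 at 77.4% stood well above the other 4. The means were 92.8 ± 2.59% in subfertile cows and 56.6 ± 20.5% in fertile cows (SD, n = 6 each), with an adjusted p of 0.0558. Without fertile cow 6, ZNF395 passed in the fit over all gene sites, where 0.152% of all genes passed, and it passed without no other single cow. It also passed with at least 3 sites per gene and at an authors' difference of at least 35 points. The same held at an authors' q of at most 0.0001 and without wide-range sites. In that order, those filters called 1.43%, 9.36%, 33.4% and 42.2% of all genes.

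ZNF366 had the largest positive difference among genes with 3 or more sites. It encodes DC-SCRIPT, a coregulator of nuclear receptors found in dendritic cells. All 12 of its sites at chr20:9122586-9176177 were higher, and 11 were wide-range. The gene mean was 37.4% at the lowest, 76.8% at the median and 90.004% at the highest in subfertile cows, against 0.362%, 30.4% and 63.8% in fertile cows. Fertile cow 2, at 63.8%, lay above subfertile cows 4 and 6, so the groups overlapped. The means were 68.3 ± 22.3% in subfertile cows and 28.9 ± 22.6% in fertile cows (SD, n = 6 each, adjusted p = 0.0791).

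ZNF207, which encodes BuGZ, a protein of the mitotic spindle and kinetochore, and ZNF394, a KRAB and SCAN gene, were also higher at every site. ZNF207 had 5 sites, which gave 35.7% at the lowest, 73.0% at the median and 85.5% at the highest in subfertile cows, against 0%, 35.6% and 45.4% in fertile cows. Subfertile cow 4 lay among the fertile cows. The means of ZNF207 were 66.4 ± 21.3% in subfertile cows and 31.2 ± 15.9% in fertile cows (SD, n = 6 each, adjusted p = 0.0817). The 4 sites of ZNF394 averaged 97.4 ± 2.31% in subfertile cows and 63.7 ± 26.7% in fertile cows (adjusted p = 0.0788). Fertile cows 5 and 6, at 100% and 95.4%, lay among the subfertile cows, and the other fertile cows lay between 40.1% and 52.5%.

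Wider spreads accompanied the remaining higher genes. ZNF217, an oncogene whose protein works with a histone demethylase complex, averaged 63.5 ± 40.4% over 5 sites in subfertile cows and 31.8 ± 39.8% in fertile cows (SD, n = 6 each, adjusted p = 0.235). Values of ZNF217 lay near 0, near the middle and near 100% in both groups. ZNF592, a member of the Z3 complex of zinc finger proteins, averaged 84.2 ± 24.4% in subfertile cows and 52.5 ± 24.97% in fertile cows (adjusted p = 0.119). ZNF596, a KRAB gene, averaged 44.1 ± 38.3% in subfertile cows and 15.1 ± 17.1% in fertile cows (adjusted p = 0.233). In neither gene did the groups separate.

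In ZNF800, whose protein is linked to the control of endocrine cell fate, 17 of 18 sites were lower in subfertile cows. The gene mean was 44.7% at the lowest, 70.9% at the median and 100% at the highest in subfertile cows, against 90.5%, 96.0% and 99.0% in fertile cows. Subfertile cows 1, 4 and 5 stood between 44.7% and 46.9%, and subfertile cows 2, 3 and 6 stood at 94.8% or more, among the fertile cows. The means were 71.1 ± 28.0% in subfertile cows and 95.9 ± 3.20% in fertile cows (SD, n = 6 each, adjusted p = 0.132). The 17 lower sites spread over 31.9 kb at chr4:91598259-91630188, and none of them was wide-range.

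ZNF672, ZNF697 and ZNF148 had a like arrangement, with high values in nearly every fertile cow and some subfertile cows far below. ZNF672 averaged 62.8 ± 41.1% over 5 sites in subfertile cows and 95.8 ± 3.31% in fertile cows (SD, n = 6 each, adjusted p = 0.150), with subfertile cows 1, 3 and 4 at 39.6%, 44.5% and 0%. Without subfertile cow 4 the differences of ZNF672 and ZNF148 were -20.4 and -21.2 points. ZNF697 averaged 62.5 ± 33.5% over 5 sites in subfertile cows and 93.6 ± 3.66% in fertile cows (adjusted p = 0.108), with subfertile cows 3, 5 and 6 between 27.8% and 37.9%. ZNF148, also called ZBP-89, binds GC-rich promoter elements. It averaged 56.8 ± 37.2% over 3 sites of intron 4 in subfertile cows and 89.3 ± 16.5% in fertile cows (adjusted p = 0.112). The subfertile cows with low values were not the same from gene to gene.

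ZNF365, which in humans is linked to genome stability, was singled out after its values were seen. Its 13 sites at chr28:18475875-18490285 lay in introns 1 and 2, 11 of them lower. It had 36.9% at the lowest, 38.7% at the median and 46.5% at the highest in subfertile cows, against 44.2%, 71.8% and 73.8% in fertile cows. All fertile cows but cow 4, at 44.2%, lay above 70%. The means were 39.7 ± 3.55% in subfertile cows and 67.6 ± 11.5% in fertile cows (SD, n = 6 each, adjusted p = 0.0614).

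**Figure D4:**
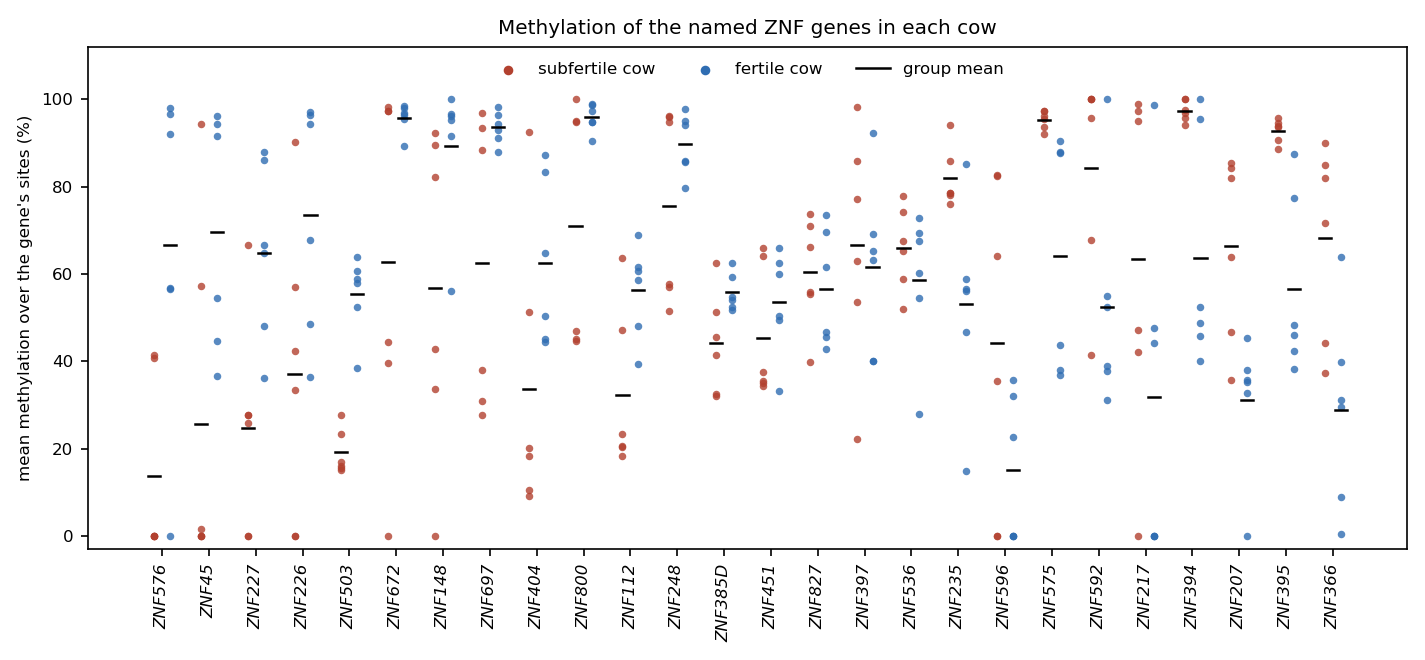
Mean methylation over the sites of each of 26 ZNF genes (y axis, percent) in each cow, with subfertile cows left of fertile cows and a black line for the group mean; genes are ordered by their difference. ZNF503, ZNF575 and ZNF395 are the genes whose groups do not overlap, and in ZNF800 the subfertile cows form a set at 44.7% to 46.9% and a set at 94.8% to 100%.

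ZNF385D, a member of a small family whose fingers resemble those of RNA-binding proteins, held 114 sites, more than any other ZNF gene. They covered 319 kb at chr27:44096783-44415485, all in introns, with 102 wide-range sites. The gene mean was 32.1% at the lowest, 43.6% at the median and 62.4% at the highest in subfertile cows, against 51.8%, 54.5% and 62.5% in fertile cows. The groups overlapped, with subfertile cow 2 at the level of the highest fertile cow. The means were 44.3 ± 11.6% in subfertile cows and 55.8 ± 4.21% in fertile cows (SD, n = 6 each, adjusted p = 0.202). The difference of -11.5 points was -3.22 with sites within 1 kb averaged first, -3.54 without wide-range sites and -24.9 with the median of the sites.

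Direction differed along ZNF385D. In intron 1, 26 of 36 sites were lower, and in intron 4 it was 27 of 31. In intron 3, by contrast, 12 of 17 sites were higher. Intron 4 averaged 36.2 ± 25.7% in subfertile cows and 68.2 ± 19.3% in fertile cows, and intron 3 averaged 51.2 ± 7.96% in subfertile cows and 38.9 ± 5.19% in fertile cows (SD, n = 6 each). Intron 2 was divided, with 14 sites higher and 12 lower. Sites of 1 intron lie close together and share cows, so these counts are not independent observations.

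The other genes with many sites were similarly mixed. ZNF536, a repressor of neuronal differentiation, had 23 higher and 14 lower sites over 272 kb and averaged 65.9 ± 9.65% in subfertile cows and 58.7 ± 16.5% in fertile cows (SD, n = 6 each, adjusted p = 0.480). ZNF827, which recruits the NuRD deacetylase complex, had 15 higher and 11 lower sites and averaged 60.4 ± 12.6% in subfertile cows and 56.6 ± 13.3% in fertile cows (adjusted p = 0.728). ZNF451, a SUMO ligase, had 6 higher and 10 lower sites and averaged 45.4 ± 15.2% in subfertile cows and 53.6 ± 12.01% in fertile cows (adjusted p = 0.447). The ZNF536 difference was -0.39 points over sites with a value in all cows and 1.05 points without fertile cow 6. Wide-range sites made up 30 of its 37 sites, namely all 14 lower sites and 16 of the 23 higher ones. Without them only higher sites were left, each kept for a large difference. The ZNF536 difference was then 34.2 points and passed (adjusted p = 0.0159), in a fit where 42.2% of all genes tested passed. Its sign was fixed by the filter.

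**Figure D5:**
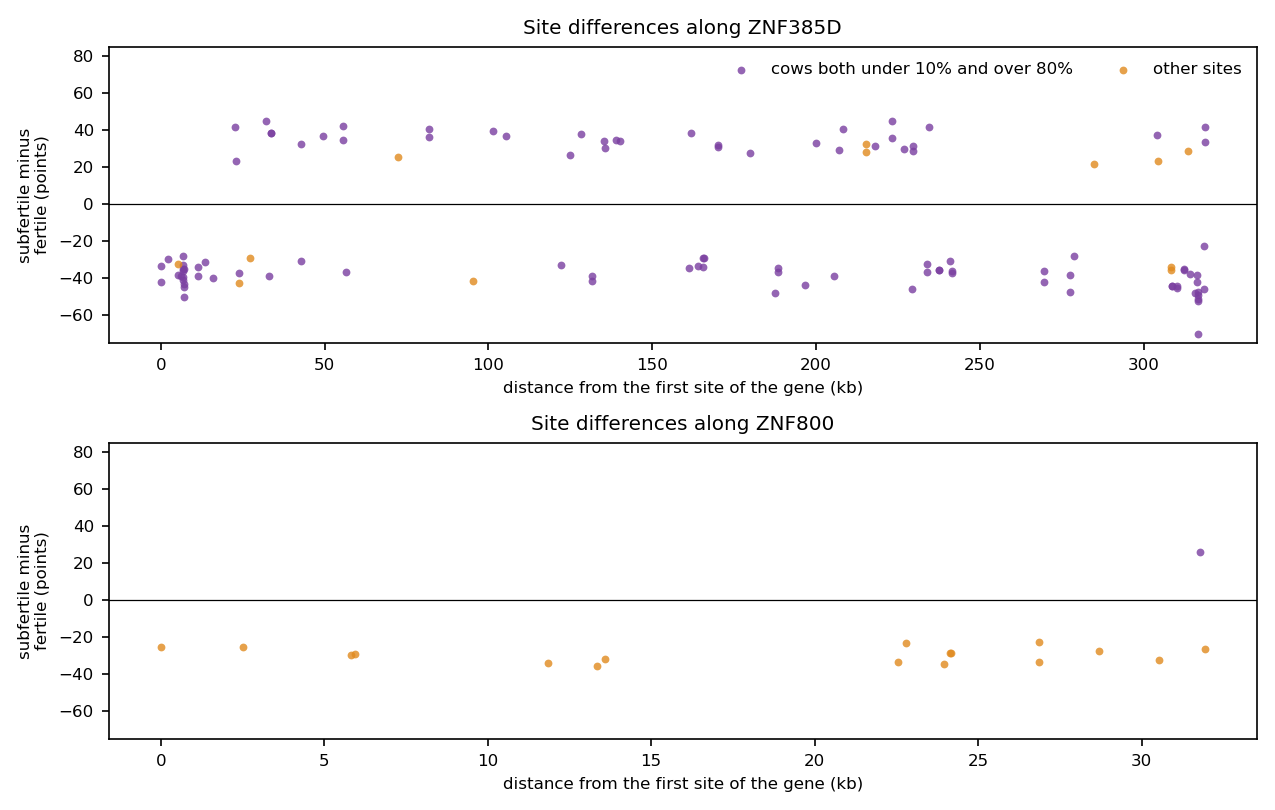
Difference of each site (y axis, subfertile minus fertile, percentage points) by its distance from the first site of the gene (x axis, kb) in ZNF385D and ZNF800. Purple points are sites with a cow under 10% and a cow over 80%. ZNF385D has 42 sites above 0 and 72 below, whereas ZNF800 has 17 of 18 sites below 0, none of the 17 being purple.

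By domain, taken from what is known of the human genes, 26 of the 89 genes encode a KRAB domain. Of these, 13 were higher and 13 lower in subfertile cows, none of 25 tested passed (0.121% of all genes did), and 10 had an unadjusted p under 0.05 (40%, against 40.6% of all genes). Their median difference was -1.41 points, against 2.09 points over all genes. The 8 KRAB genes of the chromosome 18 run divided into 2 higher and 6 lower, and the 18 elsewhere into 11 higher and 7 lower. SCAN domains, which pair zinc finger proteins with each other, are encoded by 7 genes, of which 4 were higher and 3 lower. The 63 genes without a KRAB domain divided into 29 higher and 34 lower.

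Of 36 listed genes whose products work with KRAB zinc finger proteins or in the same silencing complexes, 20 had a site. Of these, 8 were higher and 12 lower, with a median of -14.0 points, and none of the 19 tested passed the fit over all genes (0.121% of all genes did). At an unadjusted p under 0.05 there were 7 (36.8%, against 40.6% of all genes), 3 higher and 4 lower. CBX1, a heterochromatin protein, averaged 53.0 ± 27.2% over 1 site in subfertile cows and 91.4 ± 8.24% in fertile cows (SD, n = 6 each, adjusted p = 0.0661). DNMT3A, a de novo DNA methyltransferase, averaged 45.6 ± 31.0% over 9 sites in subfertile cows and 80.7 ± 22.7% in fertile cows (adjusted p = 0.115). RCOR1, a corepressor, averaged 27.5 ± 37.9% in subfertile cows and 64.4 ± 17.7% in fertile cows. UHRF1, which guides maintenance methylation, averaged 60.7 ± 34.6% in subfertile cows and 24.3 ± 22.1% in fertile cows. EHMT2, a histone methyltransferase, averaged 60.3 ± 38.4% over 1 site in 6 subfertile cows and 25.7 ± 43.3% in 5 fertile cows and was not tested.

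Most ZNF sites were intronic, 461 of 595 (77.5%, against 83.2% of all sites in gene features). Promoter annotation, within 3 kb of a transcription start, covered 107 ZNF sites (17.98%, against 12.99%). Of these 24 lay within 1 kb of the start, and 51 were higher and 56 lower. In first introns 59 of 146 ZNF sites were higher (40.4%, against 51.8% of all first-intron sites), and without the 36 of ZNF385D it was 49 of 110 (44.5%). In last introns 54 of 91 ZNF sites were higher (59.3%, against 51.2% of all last-intron sites). Of these 91 sites, 23 lay in the last intron of ZNF235 alone, and all 23 were higher. Last exons held 11 ZNF sites (1.85%, against 0.472%), 3 higher and 8 lower, in 6 genes. The other strand of the same CpG was also listed for 286 of the 595 sites (48.1%, against 45.9%), so neighbouring values are not independent. These shares are descriptions without a test, and ZNF235 and ZNF404 gave 7 of the 11 last-exon sites. The last-exon site of ZNF248, a KRAB gene, averaged 96.2 ± 6.77% in subfertile cows and 63.7 ± 28.8% in fertile cows (SD, n = 6 each). That of ZNF394 averaged 96.8 ± 5.28% in subfertile cows and 71.8 ± 19.3% in fertile cows. The last-exon site of ZNF397, a SCAN gene, averaged 74.1 ± 41.8% in 5 subfertile cows and was at 100% in 5 fertile cows.

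Most runs of neighbouring ZNF genes held both directions, and no expected share was computed. Of 10 runs of ZNF genes standing within 1 Mb of each other, with 35 genes in all, 8 held genes of both directions. The largest, the chromosome 18 run with ZNF296 added, had 3 higher and 9 lower genes. On chromosome 4, ZNF398, ZNF777, ZNF746 and ZNF775 were higher and ZNF786 was lower. On chromosome 28, ZNF25 and ZNF248 were both lower, with differences of -13.2 and -14.2 points.

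Other zinc finger families of the same table gave no called gene, where 0.121% of all genes were called. Of 14 ZBTB genes, which carry a BTB domain beside their fingers, 4 were higher and 10 lower, with a median of -15.7 points. All 4 KLF genes were higher, with a median of 33.1 points, as were 6 of 8 ZC3H genes. The 15 ZNF genes left out on chromosome 18 divided into 8 higher and 7 lower. Of 46 listed markers of blood cell types, 20 had a site, 10 higher and 10 lower, between -37.6 and 39.4 points. None of 18 tested passed (0.121% of all genes did). All 6 listed natural killer cell genes had a site, and 2 were higher and 4 lower. Their differences ran from -37.6 points for GZMB, through -33.6 for PRF1, -27.6 for KLRF1, -5.94 for KLRD1 and 15.9 for NCR1, to 39.4 points for NKG7. The groups did not overlap in 2 of the 20 markers, where 3.5% of all genes did not overlap. These were NKG7, higher, and the neutrophil marker MPO, lower by -35.6 points at 1 site. The part of blood cell composition in the ZNF values was not tested.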

How the data were processed

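Whole-blood DNA of 6 subfertile and 6 fertile cows was measured by enzymatic methyl sequencing. The submitters' processing notes name the build ARS-UCD1.2 and the tools ChIPseeker 1.32.1, DRAGEN, Bismark and fastp 0.23.1. The deposited percent values, methylated reads of all reads per site and cow, were used as they stand. The authors' deposited p-values and q-values and their deposited difference per site, a signed score in percentage points, served only as alternative filters, with a q-value of at most 0.0001 and a difference of at least 35 points. The distance to the nearest start is a further score the authors deposited, in bases. The table holds sites past 25 points and a q-value of 0.01, as its values show. Columns were matched to cows by the numbers in the labels. The letters before those numbers (F for cows labelled subfertile, R for fertile) are not explained in the sources used here, and a swap would turn every direction.

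A logistic model on reads had been planned, but the table gives no reads. Instead limma 3.58.1 (R 4.3.3) was fitted to log2((percent + 5)/(100 - percent + 5)) in which cows differed by group alone, and p-values were adjusted by Benjamini-Hochberg over all genes, promoter genes or sites. A gene's value was the mean over its sites per cow. Calls used an adjusted p of 0.05 for genes and 0.01 for sites. Nothing says more than that each sample is 1 cow, depth is unknown, and 12 samples limit the precision. The code was tested on simulated data. The 89 genes, the gene lists and the domain groups were chosen with earlier results of these data known. Genes are named by these rules: ZNF503, every gene called, the 8 with the most sites, the 8 largest differences each way among genes with 3 or more sites, genes with 2 or more sites and no overlap, and up to 5 with last-exon sites and up to 5 partners. ZNF symbols were all found in the RefSeq table of another build, which was used for names only. Alternatives changed the added points, the scale, the site summary, the site filters and the cows included.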

Additional observations from a re-analysis of the deposited data

Results flagged for a closer look

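In 52 groups of 6 cows, the subfertile and the fertile cows of 26 named ZNF genes, 4 groups held 1 cow far from the others by Dixon's criterion, which chance meets in about 1 in 20 groups. All 4 were groups of fertile cows. In ZNF148, fertile cow 5 was at 56.1%, and the other fertile cows lay between 91.7% and 100%. In ZNF207, fertile cow 1 was at 0%, and the others lay between 32.7% and 45.4%. In ZNF592, fertile cow 6 was at 100%, and the others lay between 31.1% and 54.9%. In ZNF672, fertile cow 6 was at 89.4%, and the others lay between 95.6% and 98.5%.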

How the results depend on the processing

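The count of ZNF genes called in the fit over all gene sites, 0 in the report, was 1 with 1 point added in place of 5. It was also 1 with sites within 1 kb averaged first. The gene was ZNF503 in both, and 0.212% and 0.142% of all genes passed in these fits. The ZNF count changed more under site filters. It was 3 of 49 with at least 3 sites per gene, 7 of 52 at an authors' difference of at least 35 points, 18 of 48 at an authors' q of at most 0.0001 and 18 of 46 without wide-range sites. The same filters called 1.43%, 9.36%, 33.4% and 42.2% of all genes. The ZNF count lay between 0 and 1 without single cows. It was 1 without subfertile cow 4 (ZNF503, with 0.657% of all genes called) or fertile cow 6 (ZNF395, with 0.152%). The promoter count, 2 of 13 (15.9% of all genes tested), was 1 without the chromosome 18 run, an alternative chosen after seeing the data. With 1 point added it was 1 (1.47%). It was 4 of 13 on plain percentages (24.8% of all genes tested), 4 of 5 without wide-range sites (74.8%), 4 of 7 at the stricter q (53.2%) and 3 of 7 at the stricter difference (44.1%). It was 0 with the median of the sites (0.0774%) and 0 with 1 promoter site enough (0.0909%). Without single cows it lay between 0, without fertile cow 4 (0.31%), and 3, without fertile cow 3 (11.2%). It was 1 without subfertile cow 1, 2, 3 or 6 or fertile cow 2 or 6. In the fits without those cows 2.40% to 7.66% of all genes tested passed.

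The ZNF503 promoter difference lost its call with the median of the sites (-36.0 points, adjusted p = 0.0672) and with 1 promoter site enough (-36.3 points, adjusted p = 0.0795). Without single cows it ran between -39.7 and -34.6 points, the last without fertile cow 4 (adjusted p = 0.0540). Few genes of any kind passed in these fits, 0.0774% with the median, 0.0909% with 1 site enough and 0.31% without fertile cow 4. Too few of its sites were left under the stricter difference or q for a value. The 4 genes without overlap became 7 without wide-range sites, where 55 ZNF genes had a site left, 0 at the stricter q and 2 with complete sites. Their number was 4 to 8 without single cows, 8 without subfertile cow 2 and 7 without fertile cow 3. Leaving out a cow makes separation easier in any gene. The shares over all genes under these settings are not given here, so no excess is read from these counts. The median difference of the ZNF genes was 0.39 points without the chromosome 18 run, -16.7 with the median of the sites, 22.0 without wide-range sites and 1.41 with at least 3 sites. It ran between -9.03 and -4.94 points without single cows. The medians over all genes under these settings are not given here. Of the ZNF sites that were not wide-range, 53.1% were higher, against 52.6% of all such sites in gene features, so the 22.0 points are not read as a rise of ZNF genes. The site count was 0 under each alternative run.

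Of 602 further values of named genes, beside those of the ZNF503 promoter given above, 555 kept direction and side of the threshold, 26 passed it, 12 lost it, all of ZNF575's promoter, and 9 changed sign. Without wide-range sites ZNF112 was at 15.9, ZNF404 at 33.9 and ZNF397 at -21.4 points. ZNF397 was at -22.4 points at the stricter q, -0.44 with sites averaged within 1 kb and between -1.30, without subfertile cow 5, and 13.9, without subfertile cow 3, on leaving out single cows. ZNF536 was at -4.56 points at the stricter q and -0.39 with complete sites, and ZNF248 at 32.4 points at a difference of at least 35. The cause of these changes was not tested. No paired analysis was possible because the labels link no subfertile cow to a fertile cow. Read depth per site is unknown, so the counting error of single values cannot be set beside the spread between cows.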
